A study of Caenorhabditis elegans with 2 samples.

Results

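The 33 genes described here encode proteins that build, anchor or control the body wall muscle of *Caenorhabditis elegans*. They were chosen by name, with earlier results of these data known. All 33 matched a protein-coding gene of the WBcel235 (ce11) annotation, which holds 19973 such genes on the nuclear chromosomes. By the known function of their products, 9 belong to the thick filament, 13 to the thin filament and 8 to the attachment of the sarcomere to the muscle membrane, and 3 are regulators. The binding data came from chromatin immunoprecipitation and sequencing (ChIP-seq) in whole animals of strain OP568. The strain carries unc-119(tm4063) III and the integrated transgene wgIs568, which expresses LSY-12 with GFP and FLAG at its C terminus. LSY-12 belongs to the MYST histone acetyltransferases. The tagged protein was recovered with an antibody against GFP. Animals of both sexes were collected as L3 larvae, 43 h past a starved L1 arrest that followed bleaching. The 2 samples are biological replicates, numbered 3 and 4, of this 1 group. The labels give 1 condition only, so no comparison between conditions was made.

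Body wall muscle cells are obliquely striated. Myosin, laid down on a core of paramyosin, forms the thick filaments, and actin with tropomyosin and troponin forms the thin filaments, which are anchored in dense bodies. Dense bodies and M lines are tied by integrin to perlecan in the basement membrane, and mutants without this attachment often stop as paralysed embryos, while loss of many filament proteins gives the uncoordinated phenotype from which the unc genes take their name. Histone acetyltransferases modify chromatin at the genes they act on. A peak in a whole animal does not tell which tissue it came from, so occupancy in few cells and weaker occupancy in many cannot be told apart.

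Each replicate list and the pooled list of both replicates held 30000 candidate regions, most of which are weak: q-values of 0.01 or below were given to 942 regions of replicate 3, 1317 of replicate 4 and 1222 of the pooled list. The authors' reproducibility threshold kept 2095 regions, called peaks here. Signal is given throughout as relative signal, the authors' value for a region over the median value of its own list. The lowest peak had a pooled relative signal of 2.133, the median peak 3.06, and a region had to reach 0.733 to be listed in the pooled list at all. A summit mostly lay in the middle of its region. A region was assigned to a gene start when its summit fell within 500 bp of the most 5' annotated start. Read counts are not given in these lists and the depth is unknown, so only the distance between the 2 replicates shows how precise a value is.

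Peaks lay at the starts of 3 of the 33 muscle genes, unc-60, act-4 and unc-112. This share of 9.09% stood against 5.26% of all protein-coding genes (1050 of 19973). Sequences at these 3 peaks and at the 3 candidates discussed most below are shown to place each one relative to its gene. Each runs 5' to 3' on the strand of the gene, covers the summit and 50 bases on each side except for act-4, and is read from the ce11 genome. Capitals mark the start codon of act-4 and any match to CANNTG, the E-box recognised by MyoD-type factors such as HLH-1. The act-4 window is given from the start codon onward and covers 47 bases.
unc-60, V:1474605-1474705, plus strand: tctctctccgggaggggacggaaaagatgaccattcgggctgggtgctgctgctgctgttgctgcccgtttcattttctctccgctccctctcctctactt
act-4, X:4960662-4960708, plus strand: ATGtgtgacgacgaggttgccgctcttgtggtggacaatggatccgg
unc-112, V:14696875-14696975, minus strand: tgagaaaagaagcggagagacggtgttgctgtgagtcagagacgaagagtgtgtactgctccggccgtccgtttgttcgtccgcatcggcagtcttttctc
mup-2, X:6408925-6409025, minus strand: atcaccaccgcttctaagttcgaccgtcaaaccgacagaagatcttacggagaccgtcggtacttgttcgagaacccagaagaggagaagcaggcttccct
unc-27, X:8789248-8789348, plus strand: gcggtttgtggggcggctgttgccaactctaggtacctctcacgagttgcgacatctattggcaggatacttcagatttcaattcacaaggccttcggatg
act-2, V:11078491-11078591, minus strand: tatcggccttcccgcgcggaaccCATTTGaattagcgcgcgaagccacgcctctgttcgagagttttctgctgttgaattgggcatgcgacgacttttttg

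The unc-60, unc-112, unc-27 and act-2 windows lie upstream of the annotated starts, the mup-2 window lies within a coding exon, and the act-4 peak spans the start of the gene. The unc-27 window overlaps the annotated non-coding RNA gene ZK721.6, and the act-2 window overlaps the non-coding RNA genes T04C12.18 and T04C12.24. The 6 windows had GC contents of 51.5% to 57.4%, counting all bases within 50 bp of the summit. CANNTG, searched on both strands, which read the same for this palindromic pattern, was in 0 of the 3 peak windows of muscle genes and in 38.3% of all 2095 peak windows. It was in 7 of the 18 windows around the strongest sub-threshold candidates at other muscle gene starts, or 38.9%, and in 38.1% of all 30000 pooled regions. CAGCTG, a form of CANNTG that myogenic factors prefer, was in 0 of these 3 and 0 of these 18 windows, against 3.39% of all peak windows. Within 500 bp of the start, CAGCTG was present at 4 of the 33 muscle genes (12.1%) and at 18.7% of all protein-coding genes. These counts describe letters in the windows only.

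By pooled value, the strongest peak at a muscle gene was that of unc-60. This gene encodes the actin-severing protein ADF/cofilin in a ubiquitous and a muscle isoform. The region spans V:1474450-1474859, its summit lies 431 bp upstream of the start, and it ranked 971 in the pooled list. Its relative signal was 2.57 in replicate 3 and 3.20 in replicate 4, with a mean of 2.88 ± 0.444 (SD, n = 2) and a pooled value of 3.17. The deposited q-value was 0.01 or below in the pooled and replicate 4 lists and above 0.01 in replicate 3, where the region ranked 1287. F53E2.2, another protein-coding gene, has the same annotated start, so the peak cannot be assigned to one of the pair.

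The peak of act-4, one of the muscle actin genes, spans X:4960453-4960862. Its summit lies 37 bp downstream of the start in the untranslated part of the first exon, and the region covers the start codon. The relative signal was 1.60 in replicate 3, at rank 3820, and 4.15 in replicate 4, at rank 500. The mean was 2.87 ± 1.80 (SD, n = 2), and the pooled value was 2.88 at rank 1188. This mean was close to the unc-60 mean of 2.88, and in replicate 4 act-4 had the higher value. The replicates thus differed more at this gene than at either other peak, and replicate 3 alone would not have placed the region among its strongest 2095. This was the one muscle gene with a peak summit inside the gene.

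The peak of unc-112, which encodes kindlin, an integrin-binding protein of dense bodies and M lines, spans V:14696720-14697129 with the summit 271 bp upstream of the start. The relative signal was 2.11 in replicate 3 and 1.98 in replicate 4 (mean 2.04 ± 0.098, SD, n = 2). The replicates were close, but the peak was weak: its pooled value of 2.16, at rank 2039, lay just above the threshold, and its q-value was above 0.01 in the pooled list and in both replicates. At rank 2354 in replicate 4, it was not among the strongest 2095 regions of that replicate alone. The muscle region just below the threshold was in the troponin T gene mup-2, with a pooled relative signal of 2.13 at rank 2103.

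**Figure D1:**
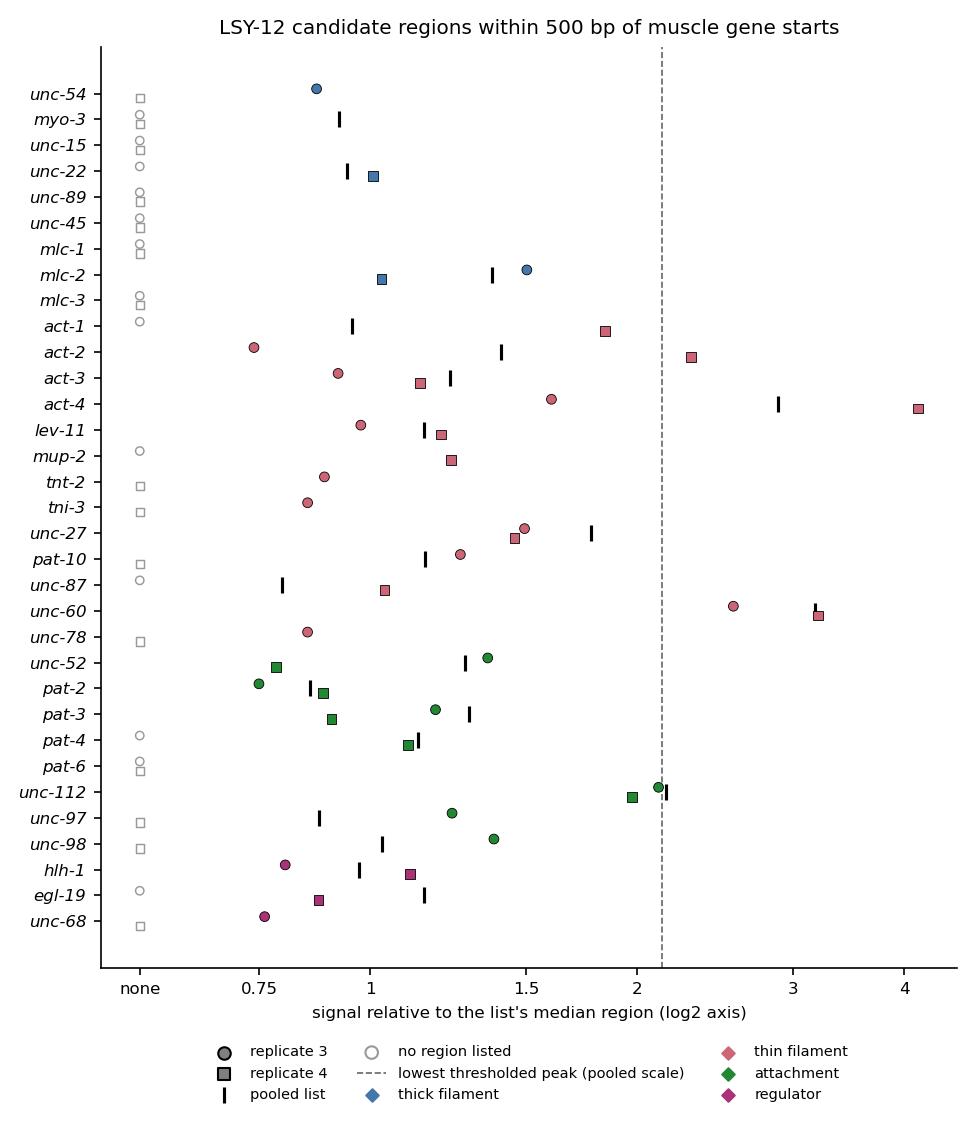
Relative signal (x axis, log2 scale, signal divided by the median of the same list) of the strongest candidate region within 500 bp of each muscle gene start, with genes in rows. Circles are replicate 3, squares replicate 4 and vertical ticks the pooled list, colours give the role, open symbols at the left mark genes with no listed region, and the dashed line is the lowest peak at 2.133 on the pooled scale. The pooled ticks of unc-60, act-4 and unc-112 lie to the right of the line, and the squares and circles of act-4 and act-2 lie far apart.

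The same 3 genes were the only muscle genes that were the nearest protein-coding start, within 5000 bp, of a peak: 3 of 33 (9.09%), against 8.05% of all protein-coding genes. No peak lay within 5000 bp of the start of 28 of the 33 (84.8%), against 81.8% of all protein-coding genes, and for 23 of them the nearest peak was more than 10000 bp away. The median distance from start to nearest peak was 21716 bp for the muscle genes and 22906 bp for all genes. The other 2 genes with a peak within 5000 bp were egl-19 and mlc-2. The peak 3278 bp upstream of egl-19 was nearest to the start of C48A7.16, and the peak 4982 bp downstream of the mlc-2 start was nearest to C36E6.2. By these 3 measures the muscle genes lay near the values of the whole annotation.

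Thick filament genes had a peak at 0 of 9 starts, against 5.26% of all protein-coding genes, and a pooled candidate at 3 of 9 (33.3%), a share near the 31.8% of all genes. The major body wall myosin heavy chain gene unc-54 had no pooled candidate at its start. Its only listed region there was in replicate 3, upstream of the start, with a relative signal of 0.870 at rank 20928. The minor heavy chain gene myo-3 had a pooled candidate of 0.922 at rank 18354, with its summit 485 bp upstream, and no replicate summit within the window. A replicate 4 region of 1.13 at rank 10770 overlapped this candidate, with its summit outside the window. For the paramyosin gene unc-15, the obscurin gene unc-89, the myosin chaperone gene unc-45 and the light chain genes mlc-1 and mlc-3, no list held a summit within 500 bp of the start. The twitchin gene unc-22 had a pooled candidate of 0.941 in its first intron and a replicate 4 value of 1.01, with none in replicate 3. The regulatory light chain gene mlc-2 was the one thick filament gene with a candidate in both replicates, at 1.502 in replicate 3 and 1.030 in replicate 4 (mean 1.27 ± 0.334, SD, n = 2). That region lies in the coding sequence, and 23.5% of its 32-base words occur elsewhere in the genome. Its neighbour mlc-1 encodes a near-identical protein, and the signal at mlc-2 is uncertain for this reason.

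Thin filament genes had a peak at 2 of 13 starts (15.4%), against 5.26% of all protein-coding genes. A pooled candidate was at 9 of the 13 (69.2%), against 31.8% of all genes, with a median relative signal of 1.23. The 3 actin genes without a peak each had a candidate. At act-2 the candidate 387 bp upstream had a relative signal of 0.740 in replicate 3, at rank 29057, and 2.30 in replicate 4, at rank 1701 (mean 1.52 ± 1.10, SD, n = 2). At act-1 replicate 3 listed none, and replicate 4 listed a region 228 bp upstream at 1.84. At act-3 the values were 0.920 in replicate 3 and 1.14 in replicate 4 (mean 1.03 ± 0.155, SD, n = 2). All 4 actin genes thus had the higher value, or the only one, in replicate 4.

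Of the 12 muscle genes with a candidate in both replicates, act-2 and act-4 had a replicate 4 value at least 2 times that of replicate 3. This was so for 80 of the 3988 genes with both values (2.01%). The median ratio of replicate 4 to replicate 3 was 1.21 over the 12 and 1.04 over the 3988. Across the cluster on chromosome V that holds act-1, act-2 and act-3, the pooled list had 10 regions, and 6 of them were higher in, or listed only for, replicate 4. Some neighbouring regions of the 10 were overlapped by the same replicate region and are not independent. The strongest of the 6 lay between act-3 and act-2 with 2.49 in replicate 4 and no region in replicate 3. The exceptions included a region upstream of act-2 with 1.99 in replicate 3 and 1.39 in replicate 4. At act-4 all 5 regions in and upstream of the gene were higher in, or listed only for, replicate 4, and the narrowest case had 1.63 in replicate 4 and 1.62 in replicate 3. The candidate regions at the starts of act-1, act-2 and act-3 held 0% repeated 32-base words and that of act-4 held 0.264%, although 46.5% of the window around act-1 is repeated. The share of all pooled regions that were higher in replicate 4 was not counted, so the counts for the cluster and for act-4 have no reference. Differences between these 2 libraries have no further replicate, and a cause was not tested.

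Among the other thin filament genes, the troponin I gene unc-27 had the strongest candidate below the threshold at a start. It lay 158 bp upstream with values of 1.49 in replicate 3 and 1.46 in replicate 4 (mean 1.47 ± 0.0272, SD, n = 2), and its pooled value of 1.77 ranked 3146. The 2 replicates were nearly equal there, unlike at act-2 and act-4. The tropomyosin gene lev-11 had 0.976 in replicate 3 and 1.20 in replicate 4 (mean 1.09 ± 0.160, SD, n = 2). The troponin C gene pat-10 had 1.26 in replicate 3 only, and the calponin-like gene unc-87 had 1.04 in replicate 4 only. The troponin T gene tnt-2, the troponin I gene tni-3 and unc-78, whose product AIP1 acts with cofilin, had no pooled candidate and a single region each in replicate 3, at 0.888, 0.850 and 0.850. At mup-2 the start held only a replicate 4 region of 1.23. The stronger mup-2 region, the one just below the threshold, lay 1252 bp downstream in a coding exon with 1.61 in replicate 3 and 2.27 in replicate 4 (mean 1.94 ± 0.460, SD, n = 2).

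Attachment genes had 1 peak, that of unc-112, among 8 starts (12.5%), against 5.26% of all protein-coding genes. A pooled candidate was at 7 of the 8 (87.5%), against 31.8% of all genes, with a median relative signal of 1.13. The perlecan gene unc-52 had 1.36 in replicate 3 and 0.784 in replicate 4, with the summit 40 bp upstream (mean 1.07 ± 0.405, SD, n = 2). The β-integrin gene pat-3 had 1.18 in replicate 3 and 0.905 in replicate 4 (mean 1.05 ± 0.198, SD, n = 2), and the α-integrin gene pat-2 had 0.749 in replicate 3 and 0.886 in replicate 4 (mean 0.818 ± 0.0964, SD, n = 2). These 3 values lay near the median candidate of 1. The integrin-linked kinase homolog gene pat-4 was listed in replicate 4 only, at 1.10. The PINCH gene unc-97 and the zinc finger protein gene unc-98 were listed in replicate 3 only, at 1.24 and 1.38. The unc-98 summit also lay within 500 bp of the start of F08C6.18 and inside the gene pcyt-1. The parvin gene pat-6 had no listed region at its start in any list.

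The 3 regulators had no peak, against a share of 5.26% of all protein-coding genes with one. For hlh-1, which encodes the MyoD-like factor of body wall muscle, the candidate 34 bp downstream of the start had 0.802 in replicate 3 and 1.11 in replicate 4 (mean 0.956 ± 0.218, SD, n = 2), around the median of the lists. The L-type calcium channel gene egl-19 had a pooled candidate of 1.15 in its first intron, 490 bp downstream, with 0.875 in replicate 4. A replicate 3 region of 0.828 overlapped this candidate, with its summit outside the 500 bp window. The ryanodine receptor gene unc-68 had a single replicate 3 region of 0.760 at its start.

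Side by side, 12 of the 22 sarcomere genes (54.5%), 7 of the 8 attachment genes (87.5%) and 2 of the 3 regulators (66.7%) had a pooled candidate within 500 bp of the start, against 31.8% of all protein-coding genes. Within the sarcomere the count was 3 of 9 for the thick filament (33.3%) and 9 of 13 for the thin filament (69.2%). Over all 33 genes the count was 21 (63.6%). The single replicates gave 20 of 33 in replicate 3 (60.6%), against 31.4% of all genes, and 18 of 33 in replicate 4 (54.5%), against 32.1%. Both replicates listed a region for 12 of the 33 (36.4%), against 20.0% of all genes, and the paired regions overlapped in all 12. Muscle genes were thus listed more often than the annotation as a whole in each of the 3 candidate lists. The pooled list combines both replicates and is not a separate measurement. The muscle genes were chosen with earlier results of these data known, so this excess cannot be read as a trait of muscle genes. Their regions were of ordinary strength. The median of the strongest candidate was 1.15 over the 21 muscle genes and 1.10 over the 6361 genes of the annotation. Of the 18 muscle genes with a candidate and no peak, 7 had a pooled value under 1, and 0 had a q-value of 0.01 or below. The strongest candidates of these 18 were overlapped by a region of both replicates in 55.6% of cases, against 54% for the same regions of all genes.

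**Figure D2:**
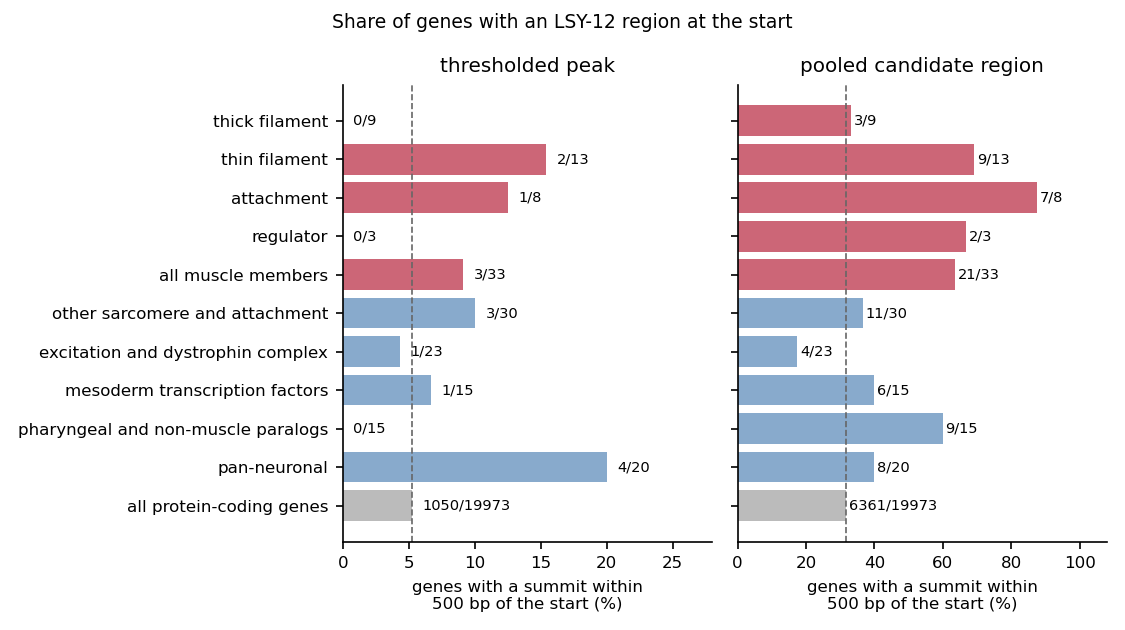
Percent of genes (x axes) with a peak summit (left) or a pooled candidate summit (right) within 500 bp of the start, for the 4 roles and all 33 muscle genes (red), 5 other gene lists (blue) and all protein-coding genes (grey bar and dashed line), with the counts at the bars. Peaks were at 3 of 33 muscle genes against 5.26% of all genes, and pooled candidates at 21 of 33 against 31.8%.

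GC content moved with the presence of a candidate. The bases within 500 bp of the start had a median GC content of 39.2% for the muscle genes and 35.4% for all protein-coding genes. When all genes were split into 5 classes of about equal size by this value, a division made after the values had been seen, 18 muscle genes fell in the class of highest GC and 10 in the next. In the highest class 11 of these 18 had a pooled candidate, against 49.9% of all genes there, and in the next class 6 of 10 did, against 40.1%. The remaining 5 muscle genes lay in lower classes, and 4 of them had a candidate. In all genes the share climbed with every class and was 14.1% in the lowest. The part of GC content in the muscle count was not tested. Repeats were not more common at muscle genes: over 10% of the window was repeated at 2 of the 33, act-1 and mlc-2, against 11.9% of all genes.

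The position of candidates relative to the start was mixed. The strongest pooled candidate at the start was upstream for 10 muscle genes and at or downstream of the start for 11. In the 500 bp upstream, the pooled list had 30.3 summits per 100 muscle genes and 19.6 per 100 genes of the annotation. In the 500 bp downstream it had 45.5 per 100 muscle genes and 16.7 per 100 genes of the annotation. For peaks, the upstream values were 6.06 per 100 muscle genes and 4.62 per 100 genes of the annotation, from 2 muscle peaks. In the 500 bp downstream they were 3.03 per 100 muscle genes, from the act-4 peak alone, and 0.741 per 100 genes of the annotation.

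**Figure D3:**
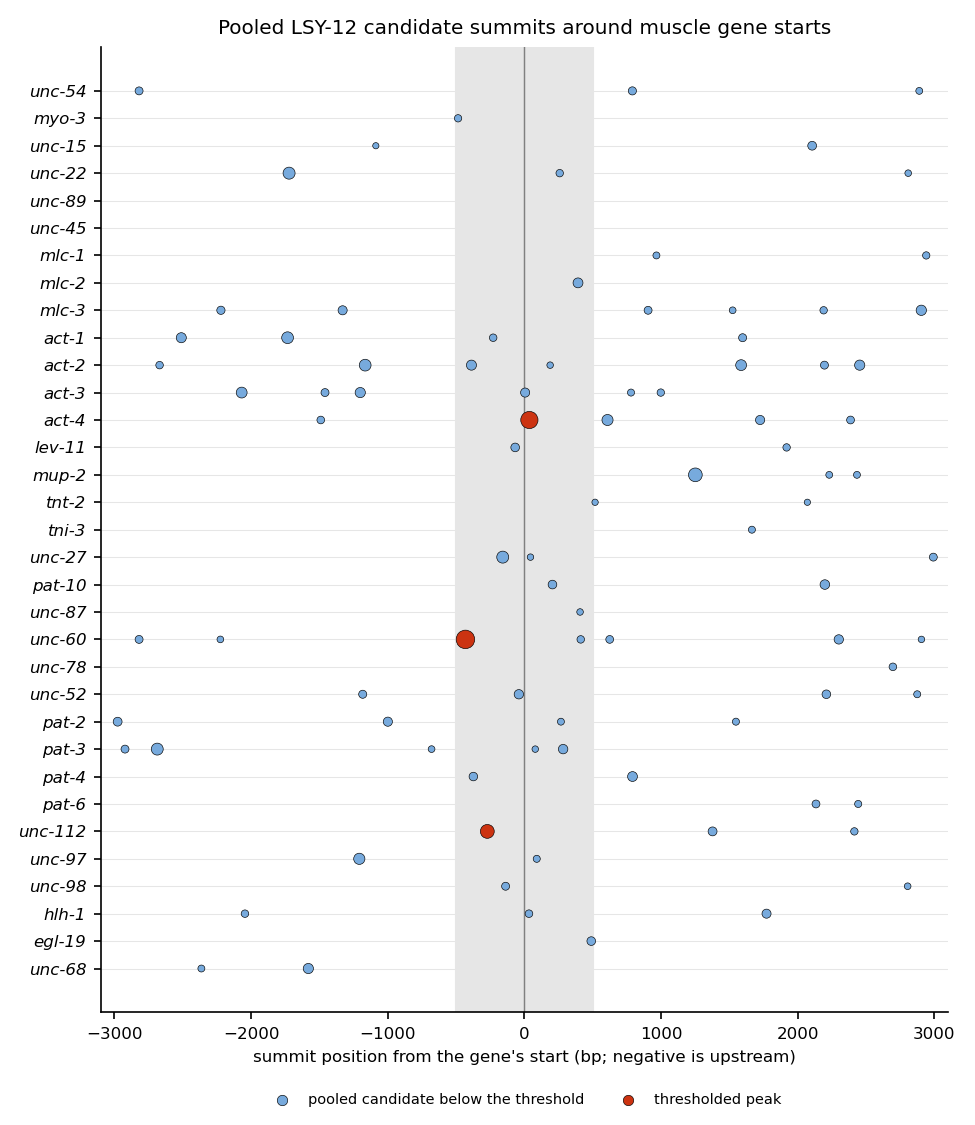
Summits of pooled candidate regions by position from the gene start (x axis, bp, negative upstream) for each muscle gene (rows), with point area growing with relative signal, peaks in red, sub-threshold candidates in blue and the 500 bp window shaded. Peaks are seen only at act-4, unc-60 and unc-112, and the rows of unc-89 and unc-45 are empty. Rows of act-1, act-2 and act-3 share regions because the genes neighbour each other.

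Inside the genes, from annotated start to end, 1 of the 33 held a peak summit (3.03%), that of act-4, against 3.1% of all protein-coding genes. Among the strongest 2095 regions of a single replicate the count was 0 for replicate 3 and 2 for replicate 4, at act-4 and mup-2. Long genes hold more summits, and several muscle genes are very long. The 6 muscle genes of 10 kb and over, unc-22, unc-89, unc-45, unc-52, egl-19 and unc-68, held 0 peaks, against 14.6% of the 998 genes of that length with at least 1. Peaks overlapped the far ends of 2 muscle genes without a summit inside. One summit lay 158 bp past the end of unc-45 and another 85 bp past the end of pat-4, and the nearest starts to them were F30H5.3 and mrpl-40.

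Candidate summits were inside 30 of the 33 genes (90.9%), against 48.7% of all protein-coding genes. The exceptions were act-1, tni-3 and unc-45. Within length classes the counts were 7 of 9 below 2 kb, against 31.9% of all genes of that length, 10 of 10 from 2 to 5 kb, against 58.0%, 8 of 8 from 5 to 10 kb, against 76.6%, and 5 of 6 from 10 kb, against 87.3%. The pooled list placed 131 summits in the 283.1 kb of the muscle genes, or 0.463 per kb, against 0.320 per kb over all protein-coding genes. In replicate 3 the density was 0.417 per kb in the muscle genes and 0.317 per kb over all genes, and in replicate 4 it was 0.473 per kb in the muscle genes and 0.322 per kb over all genes. In the pooled list the density was 0.703 per kb in the thin filament genes, 0.4504 in the thick filament genes, 0.392 in the attachment genes and 0.382 in the regulators. The thin filament genes had the highest value in both replicate lists too, at 0.654 per kb in replicate 3 and 0.533 per kb in replicate 4, while the order of the other roles differed between the replicates. The candidates inside were weak, with a median relative signal of 0.978, and 73 of the 131 were overlapped by a region of both replicates (55.7%), against 54.1% of all pooled regions below the threshold.

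The twitchin gene unc-22, which encodes a giant kinase of the thick filament, held 25 pooled candidates at 0.653 per kb, with 19 in the replicate 3 list and 21 in the replicate 4 list. Of the 25, 17 lay in coding exons and 8 in introns, and 15 were overlapped by a region of both replicates. Their relative signals ran from 0.769 to 1.73 with a median of 0.941. The strongest, in intron 8, had 1.46 in replicate 3 and 1.59 in replicate 4, and its summit was 53 bp from the start of a tRNA gene. The perlecan gene unc-52 held 16 pooled candidates at 0.431 per kb, of which 6 were overlapped by a region of both replicates. Its strongest lay in intron 33, with 1.29 in replicate 3 and 1.41 in replicate 4. The obscurin gene unc-89 held 15 pooled candidates at 0.272 per kb, against 0.320 per kb over all genes. Its own counts differed between the replicates, with 13 at 0.236 per kb in replicate 3, against 0.317 per kb over all genes, and 23 at 0.417 per kb in replicate 4, against 0.322 per kb over all genes. The strongest pooled candidate of unc-89, in intron 28, had 1.73 in replicate 3 and 1.26 in replicate 4, and lay inside clec-89 and 419 bp from the start of that gene.

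The ryanodine receptor gene unc-68 held 8 pooled candidates, with 6 in the replicate 3 list and 14 in the replicate 4 list. Its strongest had a pooled value of 1.29, with 1.25 in replicate 3 and 1.60 in replicate 4. The calcium channel gene egl-19 held 6 pooled candidates, with 5 in replicate 3 and 6 in replicate 4, and none of the pooled values was above 1.15. The chaperone gene unc-45 held 0 in its 11079 bp in the pooled list and in both replicate lists. At the paramyosin gene unc-15 the strongest of 5 candidates lay in the untranslated last part of the gene, with 1.52 in replicate 3 and 1.54 in replicate 4. Its pooled value of 1.61, at rank 3896, was higher than any pooled value inside the 2 myosin heavy chain genes, where the strongest were 1.06 in unc-54 and 1.24 in myo-3.

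**Figure D4:**
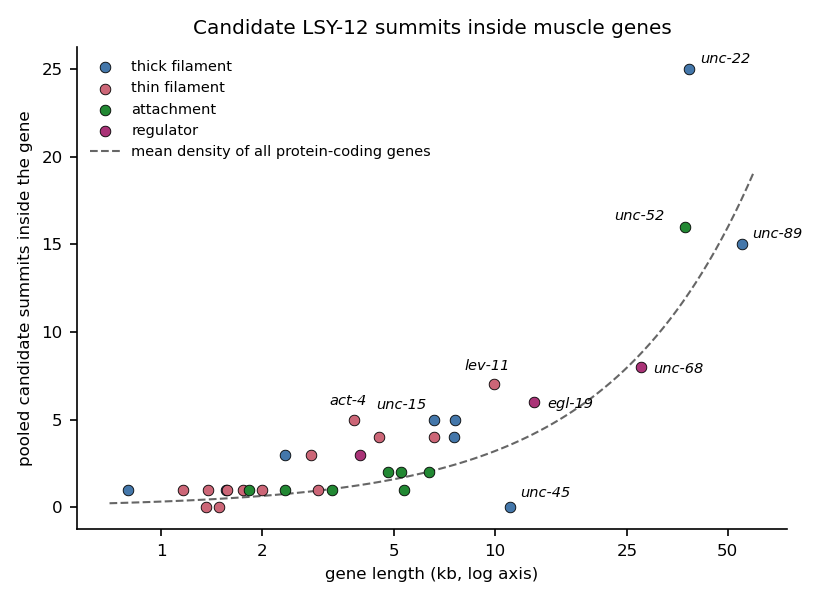
Number of pooled candidate summits inside each muscle gene (y axis) against gene length (x axis, kb, log scale), coloured by role, with a dashed line at the mean density of all protein-coding genes (0.320 per kb). The gene unc-22 stands above the line with 25 summits, unc-89 lies below it with 15 (23 in the replicate 4 list, not plotted, is above the mean density), and unc-45 lies on the axis with 0.

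Other lists drawn up for muscle were counted by the same rules. Among 30 genes listed as other sarcomere and attachment genes, 3 had a peak at the start (10%), against 5.26% of all protein-coding genes. A pooled candidate was at 11 of the 30 (36.7%), near the 31.8% of all genes. The peak of cap-2, which encodes the β subunit of actin capping protein, was far stronger than any in the 33, at 8.53 in replicate 3 and 10.1 in replicate 4 (mean 9.29 ± 1.08, SD, n = 2) at rank 71. Its summit also lay within 500 bp of the start of gmps-1. The peak of unc-23, which encodes a BAG-type cochaperone, had 3.91 in replicate 3 and 5.62 in replicate 4 (mean 4.77 ± 1.20, SD, n = 2), and that of the kinase gene mlk-1 had 2.60 in replicate 3 and 1.74 in replicate 4. Among 23 genes of muscle excitation and the dystrophin complex, 1 had a peak (4.35%), against 5.26% of all genes. It was the junctophilin gene jph-1, with 1.66 in replicate 3 and 2.39 in replicate 4. A pooled candidate was at 4 of the 23 (17.4%), below the 31.8% of all genes.

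Among 15 genes listed as muscle and mesoderm transcription factors, 1 had a peak (6.67%), against 5.26% of all protein-coding genes. It was nhr-25, a nuclear hormone receptor gene not particular to muscle or mesoderm, with 2.03 in replicate 3 and 2.47 in replicate 4. A pooled candidate was at 6 of the 15 (40%), against 31.8% of all genes. The 15 pharyngeal and non-muscle paralogs had 0 peaks, against 5.26% of all genes, and 9 had a pooled candidate (60%), against 31.8%. Their median candidate was 1.00. Of 20 pan-neuronal genes, 4 had a peak (20%) and 8 a pooled candidate (40%). Of the 33 muscle genes, 3 had a peak (9.09%) and 21 a pooled candidate (63.6%). The shares over all protein-coding genes were 5.26% and 31.8%. The neuronal and the muscle genes were both chosen with earlier results of these data known. Their shares therefore cannot serve as a tissue contrast. The median strongest candidate was 1.15 over the 21 muscle genes and 2.20 over the 8 neuronal genes. These 8 include the 4 with a peak, so the neuronal median carries the same limit. The 3 muscle peaks averaged 2.04 to 2.88 over the replicates, and the 4 neuronal peaks, those of the synaptobrevin gene snb-1, the liprin gene syd-2, the carboxypeptidase gene egl-21 and unc-14, averaged 2.44 to 2.81.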

How the data were processed

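Candidate regions were called by the authors for each replicate and for both pooled, with a control, and thresholded by the irreproducible discovery rate, per the text files deposited with the lists. For aligner and peak caller, the name is not given in the sources used here, and the control library was not analysed here. The deposited signal of each region has no stated scale and served to describe and rank regions of one list. The −log10 q-value, also deposited, served to count regions at q-values of 0.01 or below. The deposited summit offset, another column, set the summit position. Positions are ce11, counted from 1. Genes came from Ensembl release 115.

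Relative signal, counts and shares were computed with Python 3.11.15, NumPy 2.4.6 and pandas 2.3.3, with the assignment rules first checked against a direct count on artificial coordinates. At a peak, each replicate gave its overlapping region, and at other starts its strongest candidate in the window. A word of 32 bases was repeated when it occurred more than once in the genome on either strand. No test was run, since there is 1 group, and 2 replicates measure only the spread between these 2 samples. The members and lists were chosen with earlier results of these data known. Every member is named, and in the other lists the genes with a peak at the start, at most the 6 of highest signal per list. The gene lists held 2 names, nca-1 and tni-2, that matched no gene name in the annotation and were left out. Other names of these genes were not searched. Alternatives were the peak threshold, single replicates, region overlap, window size, transcript start, gene body and scaling.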

Additional observations from a re-analysis of the deposited data

How the results depend on the processing

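With peaks of at least median signal, 1 muscle gene had a peak at the start (unc-60), against 3.06% of all genes, 0 had one inside, against 1.43%, and 1 was a nearest start, against 4.38%. With pooled q-values of 0.01 or below, act-4 and unc-60 had a peak at the start, against 3.5% of all genes. From the strongest 2095 regions of single replicates, counts were 2 to 3 at starts, against 4.94% to 5.18% of all genes, 0 to 2 inside, against 3.18% to 3.26%, and 2 to 4 as nearest start, against 7.79% to 7.99%. Replicate 3 alone gave unc-60 and unc-112 at starts, and replicate 4 alone gave act-2, act-4 and unc-60 at starts, with act-4 and mup-2 inside. Region overlap gave 3 genes inside (unc-45, act-4 and pat-4), against 5.87% of all genes. Without the first 500 bp of the gene 0 were inside, against 2.43%, and with introns only 0, against 2.11%. Within 250 bp of the start, 1 gene had a peak (act-4), against 3.32% of all genes, and 12 a pooled candidate, against 19.1%. Within 1000 bp, 3 had a peak, against 7.05%, and 25 a candidate, against 47.1%. From 1000 bp upstream to 100 bp downstream, 3 had a peak, against 6.23%, and 16 a candidate, against 31.7%. At any transcript start, 3 had a peak, against 5.74%, and 23 a candidate, against 35.6%. Division by the median of the strongest regions only rescaled the relative signals, and ranks have another unit and stand beside the signals. Depth and counting error are unknown. No paired analysis was possible because there is 1 group.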
